A study of Mus musculus with 9 samples.

Results

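The genes described here encode hormones of the gut and pancreas together with a pair of transcription factors of the cells that make them: Gcg, Pyy, Sst, Ins1, Ins2, Iapp, Ghrl, Pdx1 and Neurod1. They were followed in wild-type mouse embryos, in the mid-foregut, which is the length of gut tube that starts after the pharyngeal arches and ends before the liver. The members were all probe sets of the array whose single gene symbol was one of these 9 names, which gave 13 of 22690 probe sets and 8 of the 9 genes; no probe set was assigned to Ins1 alone. Embryos were staged by somites, the paired blocks of mesoderm added as the body axis grows, at 16-20 (embryonic day 8.5), 21-25 (day 9.0) and 26-30 somites (day 9.5), with 3 biological replicates at each stage; whether these came from separate litters is not stated, so the spread is that between these samples. For RNA, 5 to 10 foreguts were pooled per somite group; 100 ng went through 2 rounds of linear amplification, and each sample was hybridised to 1 Affymetrix array. The foregut was cut out of the embryo after the neural tube and heart had been removed, so a pool holds epithelium, mesenchyme and whatever neighbouring tissue came with it.

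Peptide hormones of the digestive tract are made by scattered endocrine cells of the gut epithelium and by the islets of the pancreas, which bud from the foregut. They are translated as long precursors, cut by prohormone convertases in the secretory pathway and stored in dense granules. Glucagon cells are among the earliest endocrine cells of the embryonic pancreas, and Pdx1 marks the region of the posterior foregut that forms pancreas and duodenum. How much of that region lay in the dissected piece, which ended before the liver, was not tested. The genes were selected on signals and stage differences seen in earlier comparisons of the same arrays, so their stage differences are given as a description, with no test.

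Gcg and Pyy were the members whose arrays of different stages lay wholly apart, and their sequences just before the start of the gene are shown for that reason. In the RefSeq promoter table of the GRCm38.p6 build, 8 of the 9 members had an entry, 7 of them at the annotated start of the gene. The 250 bases before the start of Gcg (chr2:62483654-62483903) and of Pyy (chr11:102107833-102108082), both on the minus strand, read 5′ to 3′ as follows, with capitals for TAAT on either strand (the core letters that many homeodomain factors bind) and for CANNTG (the E-box letters bound by factors of the NeuroD1 class).

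Gcg: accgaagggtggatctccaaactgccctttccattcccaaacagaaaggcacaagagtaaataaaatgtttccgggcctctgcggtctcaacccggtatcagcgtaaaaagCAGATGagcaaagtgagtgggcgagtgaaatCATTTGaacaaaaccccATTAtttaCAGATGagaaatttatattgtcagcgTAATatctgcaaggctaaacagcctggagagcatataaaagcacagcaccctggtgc

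Pyy: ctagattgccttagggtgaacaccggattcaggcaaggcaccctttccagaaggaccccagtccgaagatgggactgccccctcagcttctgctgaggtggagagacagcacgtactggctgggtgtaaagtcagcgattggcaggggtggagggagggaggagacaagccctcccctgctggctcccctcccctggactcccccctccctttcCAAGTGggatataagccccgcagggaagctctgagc

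The Gcg window held 2 matches to TAAT and 3 to CANNTG, and the Pyy window 0 and 1. No match of one motif overlapped one of the other in either window. Of 32851 windows of the same length in the RefSeq table, 54.92% held TAAT and 66.22% held CANNTG, so either motif is common in such windows.

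Before any stage is compared, the signals have to be set against what this array reads from genes that a foregut is not known to express. As a reference, 28 genes of sperm, retina, lens, milk, teeth, kidney, oocytes and blood cells were listed, of which 25 had a probe set, 34 probe sets in all. Their mean signals over the 9 arrays ran from 1.23 to 186, with a median of 47.6, and 10 of the 25 genes passed the filter on dim genes used for the tests. Passing that filter is therefore no sign that a gene was expressed. Detection calls were not used here. Such a comparison shows how far a probe set stood out from unspecific signal and ranks no gene above another, because probe sets differ in how brightly they read.

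Pyy lay above all 34 reference probe sets on each of the 9 arrays. The brighter Neurod1 probe set lay above 32 to 34 of them on every array. Gcg changed its place with stage: it lay above 24, 19 and 23 of the 34 at 16-20 somites, above 34, 33 and 34 at 21-25, and above 34, 34 and 32 at 26-30. The second Neurod1 probe set ranged from above 18 to above all 34. The other members never lay above all of them. Over the arrays, Ins2 lay above 19 to 33 reference probe sets, Sst above 13 to 30, Ghrl above 12 to 27 and the brighter Pdx1 probe set above 19 to 29. The brightest Iapp probe set lay above 15 to 33 and the dimmest above 3 to 18. Of the 8 genes with a probe set, Sst and Ghrl fell under the filter on dim genes: their mean log2 signals were 6.44 and 6.52, where the filter lay at 6.66, and the nearest genes inside it were Pdx1 at 6.76 and Ins2 at 6.86.

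**Figure D1:**
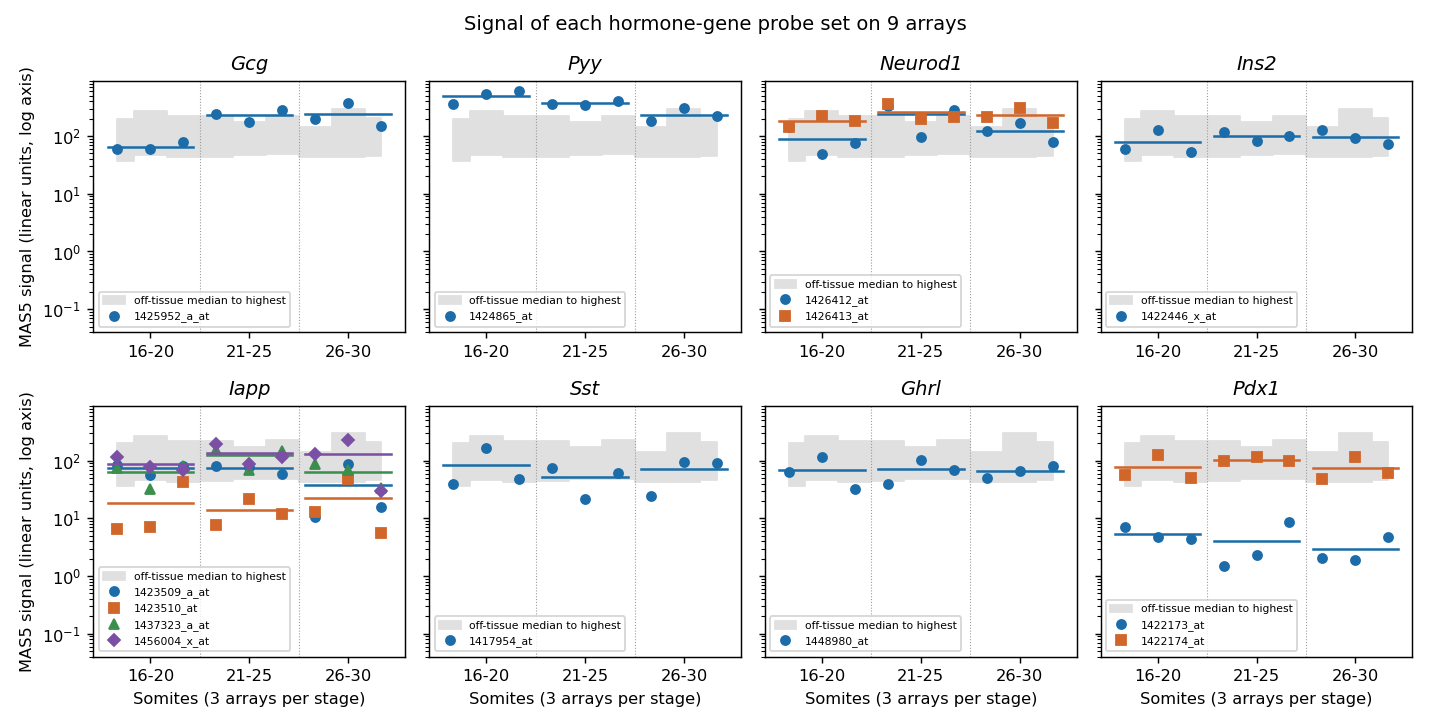
MAS5 signal on a log axis for the 13 probe sets of the 8 genes, with 3 arrays per stage in replicate order, points for arrays and horizontal lines for the stage mean; the grey band runs from the median to the highest of the 34 off-tissue probe sets on each array. Pyy stays above the band on all 9 arrays, and Gcg lies inside it at 16-20 somites and near or above its top afterwards. The other genes lie in or below it, except that Neurod1 passes its top on some arrays.

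Gcg, which encodes proglucagon, the precursor of glucagon and of the glucagon-like peptides, was read by 1 probe set, 1425952_a_at. Its signal was 59.6, 59.2 and 78.4 on the 3 arrays of 16-20 somites, 245.7, 175.5 and 284.5 at 21-25 and 196.8, 379.4 and 151.2 at 26-30. Every later array lay above every array of the first stage, while the arrays of the later stages overlapped. The means were 65.7 ± 11, 235 ± 55.2 and 242 ± 121 (SD, n = 3 each), which puts the mean signal of 21-25 somites at 3.58 times and that of 26-30 somites at 3.69 times that of the first stage. The first-stage signals lay inside the off-tissue range, so these ratios compare readings and are not exact folds of Gcg RNA. On the scale of log2(signal + 26.2), which understates the change of dim genes, the differences from 16-20 somites were 1.49 ± 0.33 (SE) at 21-25 and 1.46 ± 0.33 at 26-30, and the step between the later stages was -0.03 ± 0.33. By stage, 16-20 somites was lowest, and the later stages did not differ beyond their spread. At the first stage, 2 of the 3 Gcg signals were below 75.1, the signal that corresponds to the filter, so the gene passed the filter through its later arrays.

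The size of the Gcg difference depended on which arrays were used. The brightest probe set of an array reached 43791.6 to 61749.1 on 6 arrays but only 27479.8 to 32583.5 on the remaining 3, termed narrow-range here, which were replicate 1 of 21-25 somites with replicates 1 and 2 of 26-30. Without them the difference of 26-30 from 16-20 somites was 0.95 ± 0.43, where the single array left at 26-30 was taken to vary as the other groups do, and that of 21-25 from 16-20 somites was 1.45 ± 0.34. The single brightest Gcg signal, 379.4, came from 26-30 somites replicate 2, and without that array the whole-interval difference was 1.12. The 3 arrays of the first stage were alike in Gcg even though 1 of them, replicate 2, had a summed signal of hepatic and yolk sac markers of 43386.3, against 2789.2 and 5032.3 in the others of that stage. Without that array the difference was 1.41 ± 0.38.

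Pyy encodes peptide YY, made by endocrine cells of the gut and by early endocrine cells of the pancreas. Its single probe set, 1424865_at, read 354.1, 532.1 and 614.4 at 16-20 somites, 363.7, 344.3 and 401.3 at 21-25 and 180.2, 307.4 and 221.5 at 26-30. All arrays of the last stage lay below all arrays of both earlier stages, while the earlier stages overlapped. The stage means were 500.2 ± 133, 370 ± 29.0 and 236 ± 64.9 (SD, n = 3 each), and the mean at 16-20 somites was 2.12 times that at 26-30. At 26-30 somites the highest off-tissue signals of the same arrays were 144.5, 300.6 and 208, so Pyy cleared them narrowly on replicates 2 and 3. The ratio compares readings and is not an exact fold of Pyy RNA. The log2 difference was -1.0 ± 0.26 (SE) over the whole interval, -0.38 ± 0.26 for the first step and -0.62 ± 0.26 for the second. By stage, 26-30 somites was lowest, and the stages above it did not differ beyond their spread. Leaving out each array of 16-20 or 26-30 somites in turn kept the whole-interval difference between -1.22 and -0.84. Without the narrow-range arrays it was -1.05 ± 0.38.

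Gcg and Pyy went in opposite directions, but each was set against the same arrays of 16-20 somites, so their differences share those samples. The summed signal of 12 gut epithelium markers, among them Krt8, Krt18, Epcam and Sox2, was set beside them as a rough readout of epithelial RNA in each pool. It lay between 8151.6 and 16403.2 at 16-20 somites, between 7114.7 and 7854.8 at 21-25 and between 7253.7 and 8048.9 at 26-30, so the first stage was highest and the later stages overlapped. The upper end was replicate 2, the array with high hepatic markers; the other arrays of that stage were at 8151.6 and 9214.2. On that array Krt8 read 7627.1 and Krt18 5458.8, each its highest of the 9 arrays, while Sox2 was at its lowest, 182.3, so the markers of the sum did not move together there. By mean signal, Krt8 and Krt18 were the brightest genes of the sum. Krt18 went from 3636 ± 1625 (SD) at 16-20 somites to 1317 ± 185 at 21-25 and 1379 ± 271 at 26-30. Percentages of the sum therefore lean on these keratins, and Krt18 was itself lower at the later stages. As a percentage of that sum, the Gcg signal was 0.361 to 0.851 at 16-20 somites, 2.23 to 3.99 at 21-25 and 1.88 to 5.23 at 26-30, and the stages were apart in the same way as before. As a percentage of the same sum, the Pyy signal was 3.24 to 6.67 at 16-20 somites, 4.38 to 5.63 at 21-25 and 2.35 to 4.24 at 26-30, so that the last stage stayed below the second and now overlapped the first. That overlap came from 16-20 somites replicate 2 alone, at 3.24; the other arrays of its stage were at 4.34 and 6.67, above every array of 26-30 somites. In pooled tissue, fewer cells that express a gene and less RNA per cell cannot be told apart.

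**Figure D2:**
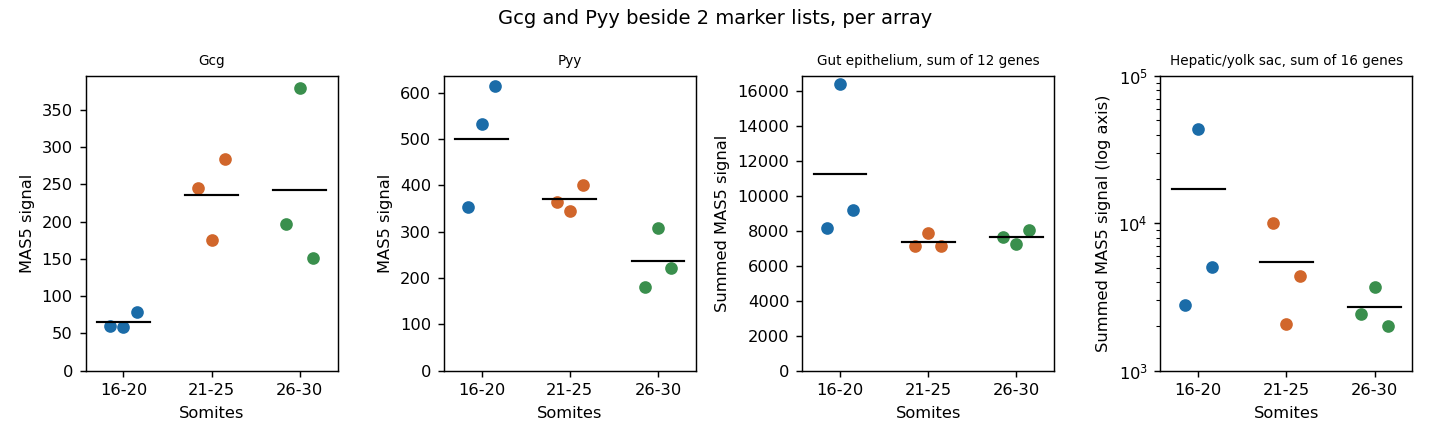
Signal per array of Gcg and Pyy and the summed signal of 12 gut epithelium and 16 hepatic and yolk sac marker genes, by somite stage; points are arrays in replicate order, black lines stage means, and the last panel has a log axis. Gcg is lowest on the 3 arrays of 16-20 somites and Pyy on the 3 of 26-30, while 16-20 somites replicate 2 stands apart in both marker sums, at 16403.2 and 43386.3.

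Neurod1, a basic helix-loop-helix factor of endocrine cells that is also expressed in developing neurons and cranial ganglia, had 2 probe sets. The brighter one, 1426413_at, read 143.0, 218.6 and 185.6 at 16-20 somites, 360.9, 198.0 and 210.7 at 21-25 and 214.0, 311.2 and 167.3 at 26-30. The other, 1426412_at, read 145, 49.5 and 75.9, then 336.5, 98.1 and 280.5, then 123.5, 171.0 and 79.4. Both were highest on 21-25 somites replicate 1, and the 3 stages overlapped in both. The log2 difference of 21-25 from 16-20 somites was 0.41 ± 0.30 in the first and 1.13 ± 0.45 in the second probe set, so the probe sets had the same direction and unequal sizes. Over the whole interval the differences were 0.28 ± 0.30 and 0.41 ± 0.45, and both turned sign without the narrow-range arrays, to -0.09 and -0.06. Of 14 neuron and cranial ganglion markers with a probe set, the summed signal lay between 1303.3 and 1795.3 at 16-20 somites, 1380.7 and 2423 at 21-25 and 1723.4 and 1970.8 at 26-30. The part of neurons in the Neurod1 signal was not tested.

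Pdx1, the homeodomain factor of the pancreatic and duodenal field, was read by 1422174_at at 56.2, 127.1 and 50.3 at 16-20 somites, 98.8, 114.1 and 100.3 at 21-25 and 48.5, 118.0 and 60.8 at 26-30. The 3 arrays at 21-25 somites were close together, and their range lay within that of the other stages. Its second probe set, 1422173_at, read 1.5 to 8.6, under the added 26.2 on every array, and carries no stage difference that can be read. The brighter probe set had a log2 difference of 0.40 ± 0.35 for the first step, -0.41 ± 0.35 for the second and -0.01 ± 0.35 over the whole interval. The stages did not differ beyond their spread.

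Ins2, the mouse insulin gene that has a counterpart in other mammals, was read by 1422446_x_at, a probe set of the type that can also bind related transcripts; the share of Ins1 in its signal was not tested. It read 60.2, 126.9 and 52.9 at 16-20 somites, 119.2, 80.6 and 101.0 at 21-25 and 128.8, 92.2 and 72.4 at 26-30. The stages overlapped, with log2 differences of 0.31 ± 0.32 for the first step and 0.26 ± 0.32 over the whole interval. Iapp encodes amylin, the peptide that beta cells release with insulin, and had 4 probe sets that did not follow one another. The brightest, 1456004_x_at, was of the same type as the Ins2 probe set. It read 116.9, 78.8 and 69.9, then 197.4, 86.4 and 117.0, then 132.1, 226.7 and 30.1, so the last stage held both its highest and its lowest array. The whole-interval difference was 0.21 ± 0.50 in this probe set, 0.01 ± 0.38 in 1437323_a_at, 0.10 ± 0.36 in 1423510_at and -0.85 ± 0.39 in 1423509_a_at. In the last of these, 26-30 somites replicates 1 and 3 read 10.6 and 15.5 and the other 7 arrays read 57.6 to 86.5. Without the narrow-range arrays the difference of the brightest probe set was -1.01. All 4 overlapped between every pair of stages.

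Sst encodes somatostatin, which restrains the release of other hormones, and Ghrl encodes ghrelin, a peptide of stomach endocrine cells that is also made in the fetal pancreas. Sst read 38.9, 164.6 and 48.9 at 16-20 somites, 75.7, 22.0 and 60.4 at 21-25 and 24.2, 94.7 and 93.1 at 26-30. Its highest signal came from 16-20 somites replicate 2, the array with high hepatic markers, and its difference over the whole interval went from -0.12 ± 0.49 to 0.36 without that array. Ghrl read 64.9, 114.0 and 32.2, then 39.9, 104.9 and 68.1, then 50, 65.8 and 80.7, with a whole-interval difference of 0.00 ± 0.37. In both genes the stages overlapped, and each difference between stage means was under 1 SE.

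**Figure D3:**
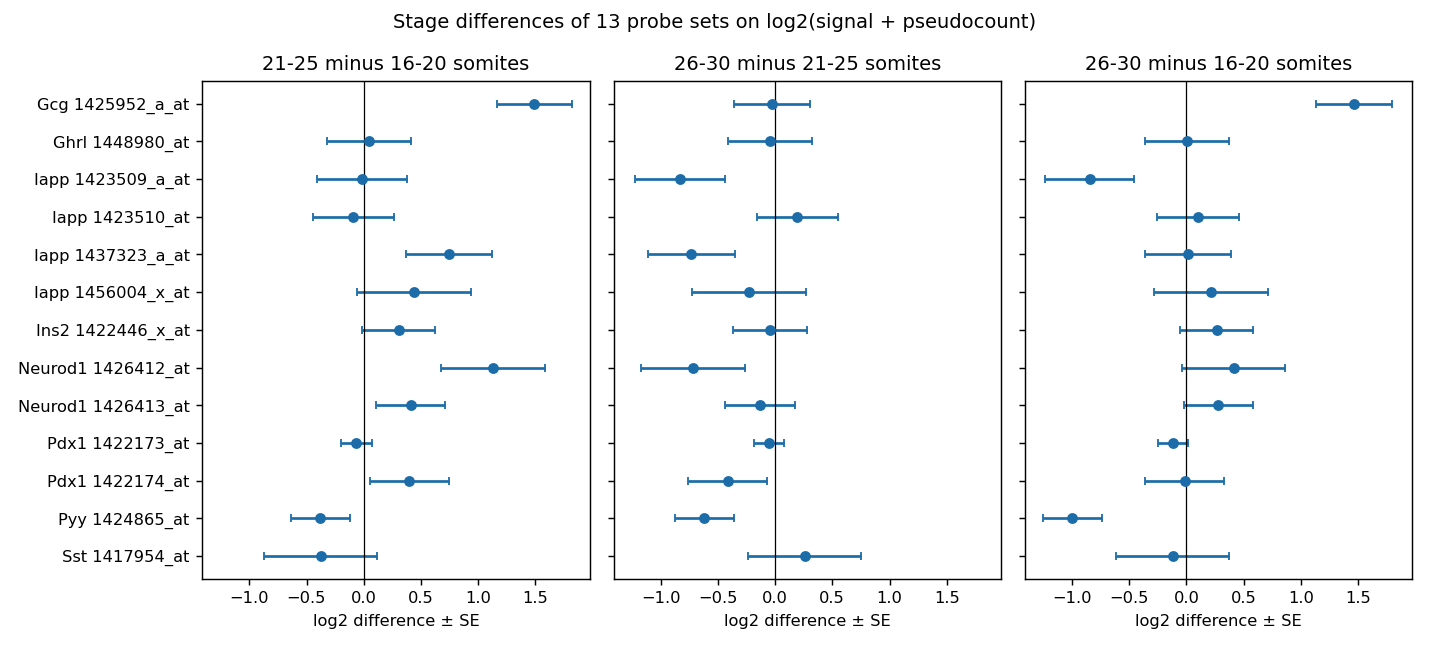
Log2 differences between stages with their SE for each of the 13 probe sets, on the scale of log2(signal + 26.2), for the first step, the second step and the whole interval; points are differences of stage means over 3 arrays each. Gcg lies at 1.49 in the first step and 1.46 over the whole interval and Pyy at -1.0 over the whole interval, while over the whole interval the SE bars of the other probe sets cross 0 except those of Iapp 1423509_a_at.

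Counted over the members, 1 of 13 probe sets (Gcg) had all arrays of 26-30 somites above those of 16-20, where 8.93% of all probe sets with 1 gene symbol did, and 1 (Pyy) had all of them below, where 9.14% did. For 21-25 against 16-20 somites the counts were 1 higher (Gcg) and 0 lower, beside 5.55% and 6.95% of all probe sets. For 26-30 against 21-25 somites they were 0 higher and 1 lower (Pyy), beside 4.27% and 4.84%. These counts are close to the background of the whole array. Without 16-20 somites replicate 2, 2 members (Gcg and Ins2) were wholly higher at 26-30 somites, beside 14.6% of all probe sets, and 1 (Pyy) was wholly lower, beside 12.7%. For the first step without that array, 4 were higher (Gcg, Ins2, Neurod1 and Pdx1), beside 10.4%, and 1 probe set of Iapp was lower, beside 9.9%. Over the 13 probe sets the median log2 difference was 0.31 for the first step, with 8 positive, -0.13 for the second step, with 2 positive, and 0.01 over the whole interval, with 8 positive. The medians over all 20380 probe sets were -0.01, 0.00 and -0.01.

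In the test over all genes, limma called 0 of 8675 genes (0%) at an adjusted p under 0.05 in each of the 3 comparisons, and so 0 of the 6 member genes tested. The counts at an unadjusted p under 0.05 were 967 over the whole interval, 960 for the first step and 353 for the second. With array weights, which give less weight to arrays that vary more, limma called 731 genes over the whole interval (8.43%), with Gcg and Pyy among them of the 6 members tested, 29 for the second step (0.334%), with 0 members, and 0 for the first. The members were selected on this contrast, so nothing is read from these counts.

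**Figure D4:**
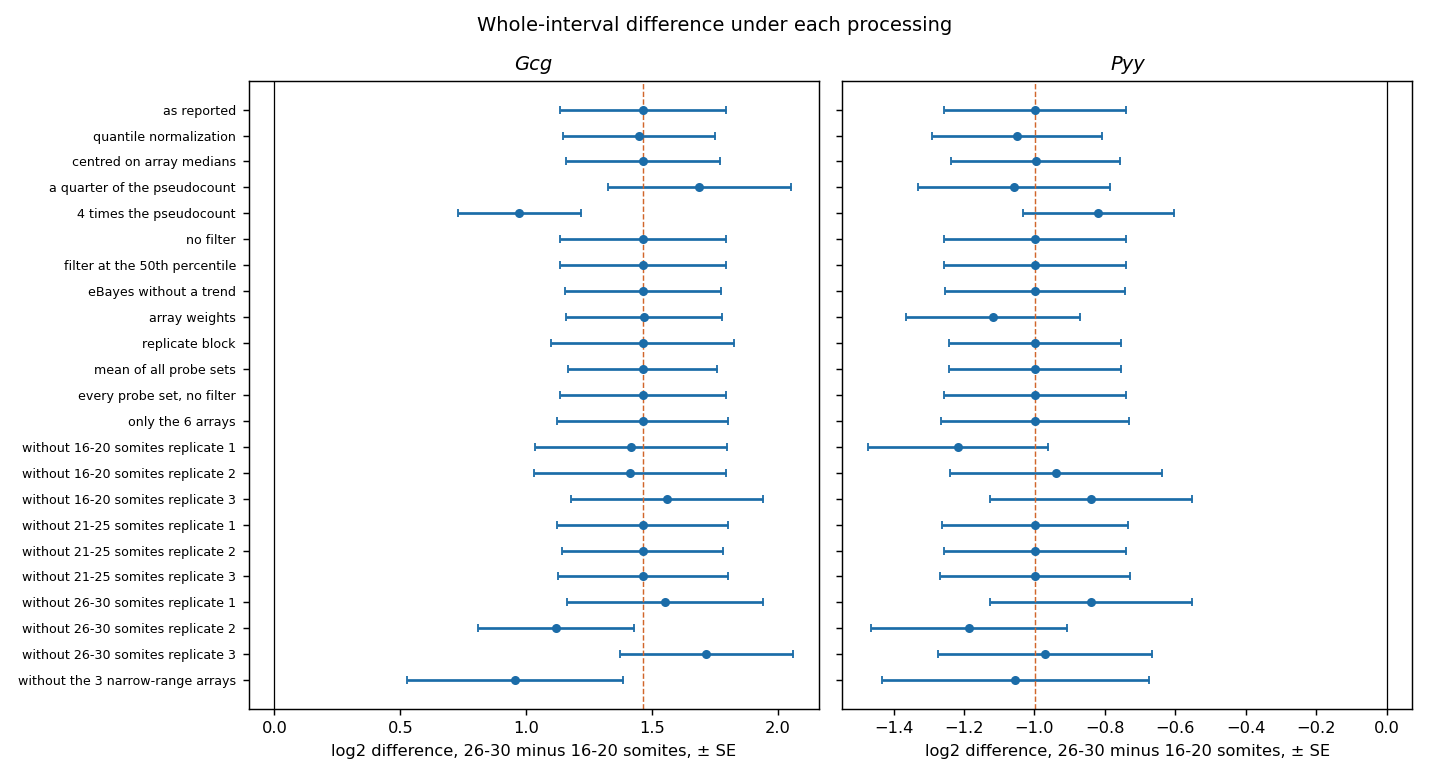
Log2 difference of 26-30 from 16-20 somites with its SE for Gcg and Pyy under each way of processing the values, with the reported value as a dashed line. Gcg stays between 0.95 and 1.72 and Pyy between -1.22 and -0.82, where several of the settings cannot move the difference by construction.

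The genes whose pattern over the 9 arrays was most like that of a member were found by the root mean square difference of gene-centred log2 signals, among the 8675 tested genes. For Gcg, whose own root mean square deviation from its mean was 0.77, they were Casp9 (0.28), Cltrn (0.35) and Casp2 (0.35). Casp9 and Casp2 encode caspases and Cltrn encodes collectrin. Casp9 had mean signals of 166 ± 39.8, 364 ± 44.4 and 373 ± 118 (SD, n = 3) at the 3 stages. For Pyy, whose own deviation was 0.48, they were Penk (0.18), Wdr83 (0.23) and Hs3st3b1 (0.23), and Penk, the precursor of the enkephalins, read 113.1 ± 29.6, 106 ± 12.3 and 57.5 ± 28.4. For Neurod1, with a deviation of 0.35, they were Scmh1 (0.11), Dll1 (0.13) and Fosb (0.13), and Dll1, a Notch ligand, read 180 ± 47.1, 275 ± 124 and 253 ± 96.0. For Ins2, with 0.34, they were Ppp1r3c (0.14), Ranbp17 (0.15) and Coro1c (0.16). For Iapp, with 0.62, they were Pik3r2 (0.24), Tex15 (0.25) and Rnft1 (0.28). For Pdx1, with 0.40, they were Cavin2 (0.20), Tff1 (0.20) and Tmed8 (0.22). These are the closest of 8675 genes over 9 arrays that share hybridisations, and likeness of this kind is a description.

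Regulators of islet and enteroendocrine cells gave 10 genes with a probe set of 14 listed and 6 tested. Over the whole interval 3 were positive and 3 negative, 0 were called in either direction by limma, and the median log2 difference was 0.24, against 0.01 over all tested genes. Isl1, a LIM homeodomain factor that is also made in foregut mesenchyme, motor neurons and the heart field, had signals of 973 ± 281, 1270 ± 451 and 2087 ± 325. Insm1, a zinc finger factor of endocrine and neuronal progenitors, read 54.9, 59.6 and 80.1 at 16-20 somites, 131.9, 77.1 and 113 at 21-25 and 82.9, 204.7 and 101.3 at 26-30, with a difference of 0.71 ± 0.31 over the whole interval. Its arrays of 26-30 somites lay above those of 16-20 by a narrow margin, 82.9 against 80.1, in a comparison where 8.93% of all probe sets were wholly higher. Mnx1, a homeobox factor of the early pancreatic bud and of motor neurons, had 0.55 ± 0.26. Neurog3, the factor that commits cells to the endocrine fate, read 118.9 ± 3.36, 130.4 ± 8.46 and 114.5 ± 36.9, with -0.08 ± 0.25. Neurog3 and Insm1 lay below the highest off-tissue probe set on every array. Mnx1 passed it only on 26-30 somites replicate 1, at 184.3 against 144.5. Such signals do not show whether these genes were expressed.

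Regulators of the posterior foregut and pancreatic progenitors gave 14 genes of 16 listed and 9 tested, with 5 positive, 4 negative and 0 called in either direction over the whole interval and a median of 0.06. Foxa1 read 2093 ± 913, 2252 ± 659 and 2843.5 ± 108, and Foxa2 634.7 ± 72.4, 497 ± 42.0 and 712 ± 154, both forkhead factors of the gut tube. Sox17, an endoderm and endothelial factor, read 636 ± 174, 801 ± 174 and 652 ± 111. Hnf4a, a nuclear receptor of liver and intestine, read 127.8, 523.5 and 213.9 at 16-20 somites and 80.3, 270.4 and 49.0 at 26-30, with a difference of -1.03 ± 0.51. Hhex, a homeobox factor of the liver and ventral pancreas, read 310.6, 920.6 and 356.4, then 205.6, 285.4 and 275.3, with -0.83 ± 0.35. Both were highest on 16-20 somites replicate 2, the array with high hepatic markers, and without it the differences were -0.53 for Hnf4a and -0.36 for Hhex.

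Hormones outside the member list were dim: 16 of 16 listed genes had a probe set and 4 passed the filter, with 1 positive, 3 negative and 0 called over the whole interval and a median of -0.32. Pomc, the precursor of corticotropin, read 115.9, 131.3 and 94.6 at 16-20 somites, 89.0, 150.9 and 100.4 at 21-25 and 58.4, 73.1 and 58.8 at 26-30, with -0.64 ± 0.25. Penk had -0.77 ± 0.29. Vip, the vasoactive intestinal peptide gene, had 0.08 ± 0.30, and Nts, the neurotensin gene, had 0.00 ± 0.28. In the off-tissue reference, 8 of 10 tested genes were also negative over the whole interval, with a median of -0.31.

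Genes of prohormone processing and the secretory granule gave 12 genes of 16 listed and 6 tested, with 3 positive, 3 negative and 0 called over the whole interval and a median of 0.10. Cpe, the carboxypeptidase that trims prohormone fragments, was bright throughout, at 1529 ± 417, 1671 ± 273 and 1789 ± 504, and is not restricted to endocrine cells. Pam, the enzyme that amidates peptide ends, had 0.55 ± 0.29. Chgb, a granin of the granule matrix, read 103.4, 25.2 and 81.2 at 16-20 somites, 182.8, 131.2 and 234.5 at 21-25 and 38.8, 166.3 and 128.2 at 26-30. Its arrays at 21-25 somites lay wholly above those at 16-20, as did 5.55% of all probe sets, with a difference of 1.19 ± 0.43 for the first step. Chgb passed the highest off-tissue probe set only on 21-25 somites replicate 3, at 234.5 against 225. Ptprn, a granule membrane protein, had -0.67 ± 0.33 over the whole interval, and Scgn, a calcium sensor of endocrine cells, -0.10 ± 0.25.

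Receptors and response genes of these hormones gave 20 genes of 23 listed and 10 tested, with 5 positive, 5 negative, 0 called and a median of 0.02 over the whole interval. The insulin receptor gene Insr had 0.47 ± 0.31, Igf1r -0.19 ± 0.30, and Irs1, the adaptor of both receptors, 0.17 ± 0.24 at signals of 2159 ± 278 to 2487 ± 646. The somatostatin receptor gene Sstr5 had -0.61 ± 0.30, and the receptor-modifying genes Ramp2 and Ramp3, whose products give calcitonin-family receptors their ligand preference, -0.15 ± 0.24 and -0.09 ± 0.24.

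Tissues that a foregut pool could hold beside its own were followed by their markers. Exocrine pancreas genes gave 13 of 16 listed and 7 tested, 2 positive, 5 negative and 0 called over the whole interval, with a median of -0.17. Spink1, a trypsin inhibitor, read 991.9 on 16-20 somites replicate 2 and 39.3 to 81.2 on the other 8 arrays. Its difference of -1.45 ± 0.69 was -0.32 without that array. Pnliprp1, a lipase-related gene, had -1.19 ± 0.35. It read 143, 142.7 and 149.2 at 16-20 somites, 79.5, 107.2 and 92.2 at 21-25 and 74.1, 81.3 and 12.9 at 26-30. Each of these signals lay below the highest off-tissue probe set of its array. Hepatic and yolk sac markers gave 16 of 18 listed and 8 tested, 0 positive, 8 negative and 0 called, with a median of -0.89, and led by Ttr, the transthyretin gene (-2.66 ± 0.85), and Apob (-1.74 ± 0.71). Both rested largely on 16-20 somites replicate 2, where Ttr read 21558.6 against 966.8 and 2185.4 in the other arrays of that stage and Apob 976.1 against 48.6 and 116.3. Without that array the differences were -1.37 and -0.65. The difference of Afp then went from -1.31 to -0.41, and that of Rbp4 turned from -0.84 to 0.39. The uniform negative sign of the list thus depended on that array. The summed signal of these markers was 2081.3 to 9994.1 at 21-25 and 2009 to 3709.5 at 26-30 somites. Neuronal markers gave 14 of 18 listed and 9 tested, 6 positive, 3 negative and 0 called, with a median of 0.26. The neurofilament gene Nefm had 1.04 ± 0.40 (0.59 without 16-20 somites replicate 2) and the progenitor factor Neurog2 -1.13 ± 0.39. Neurog2 also lay below the highest off-tissue probe set on every array, and read 15.7, 52.5 and 35.8 at 26-30 somites. Gut epithelium markers gave 12 of 12 listed and 10 tested, 4 positive, 6 negative and 0 called, with a median of -0.08. Krt18 had -1.31 ± 0.30 and Sox2, the factor of the anterior foregut, 1.04 ± 0.37. Without 16-20 somites replicate 2 these differences were -0.97 and 0.64. The part of these tissues in the member signals was not tested beyond the values given beside them.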

How the data were processed

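RNA of 9 samples of mouse mid-foregut, 3 per somite stage, was hybridised to 1 Affymetrix array each. The authors deposited MAS5 signal intensity on a linear scale, per the submitters' processing notes; no version or scaling target is named there. Values were used as deposited, since array medians lay within 0.30 log2. Of 22690 probe sets, 64 were controls and 20380 had 1 symbol in the platform annotation. After adding 26.2 (the 20th percentile of non-control values), log2 stage means were fitted to all 9 arrays with limma 3.58.1 in R 4.3.3 (eBayes with a trend; Benjamini-Hochberg at 0.05, two-sided). Each of 12393 genes was represented by its probe set of highest mean log2 signal, and genes under the 30th percentile were left out (8675 tested). The use of mean log2 rather than mean signal for this choice and filter, and of non-control values for the added constant, was settled after the values had been seen, to follow an earlier processing of the same arrays; mean signal gave slightly different counts with array weights. SEs of members come from the fit of all 20380 probe sets without a filter, those of other genes from the fit of the 8675. The number of arrays limits the precision.

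Members and lists were chosen with earlier results of these data known. Genes eligible to be named were the members, up to 3 genes of highest mean signal and up to 3 tested genes of widest whole-interval difference in each list, and the 3 genes closest in pattern to each tested member; of these, the ones bearing on the members are given. Alternatives covered normalization, pseudocount, filter, trend, array weights, replicate block, probe set choice and samples. Values of list genes, and counts of probe sets with separate stages, without 16-20 somites replicate 2 were added after seeing the data. Labels give no scan or extraction batch.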

Additional observations from a re-analysis of the deposited data

How the results depend on the processing

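Over 3 comparisons and 13 probe sets, 17 of 39 log2 differences kept their sign under every alternative run and 22 did not. Gcg kept it for the first step (0.98 to 1.73) and the whole interval (0.95 to 1.72), and Pyy for all 3 comparisons. Some alternatives cannot move a member's difference, such as those of filter, trend or replicate block, or the arrays of the compared stages alone. Leaving out an array of a stage outside the comparison cannot move it either. A sign kept under these alternatives carries no information. The limma count of 0 genes held in each comparison with the replicate block. Over all 22 alternatives it held in 18 for the whole interval, 19 for the first step and 21 for the second. In deviations from stage means, same-numbered samples of different stages correlated at -0.28 to 0.26, over 0.1 in 3 of 9 pairs. The numbers were therefore not taken to pair them. Between differently numbered arrays, 21-25 somites replicate 1 correlated at 0.44 with 26-30 somites replicate 2 and at -0.52 with replicate 3. What these arrays shared was not tested. With array weights the count was 731 over the whole interval (8.43% of genes), 29 for the second step and 0 for the first. Gcg and Pyy were among the 731, 2 of 6 members tested, and 0 members were among the 29. The members were selected on stage differences of these arrays, so nothing is read from their part in these counts. The weights ran from 0.33 for 21-25 somites replicate 2 to 3.38 for 26-30 somites replicate 1, a narrow-range array. With only the 6 arrays of both stages the count was 4 over the whole interval. Leaving out each array gave 0 to 1 genes over the whole interval (1 without replicate 1 of 16-20 or replicate 3 of 26-30 somites), 0 to 3 for the first step (1 without replicate 1 of 16-20 and 3 without replicate 3 of 21-25 somites) and 0 for the second. Dropping the 3 narrow-range arrays gave 1 gene, Rpl41, in the first step. The cause of these changes was not tested. Signal near that of the off-tissue genes limits Sst, Ghrl, Ins2, Iapp and Pdx1, both Neurod1 probe sets, Gcg at 16-20 somites and Pyy at 26-30 somites. It also limits dim list genes, among them Neurog3, Insm1, Mnx1, Pomc, Penk, Chgb, Ptprn, Sstr5, Pnliprp1 and Neurog2.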
